A study of Drosophila melanogaster with 6 samples.

Results

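The 10 glycolytic enzyme genes Pgi, Pfk, Ald1, Tpi, Gapdh1, Gapdh2, Pgk, Pglym78, Eno and PyK were taken from 4094 genes named in lists of N6-methyladenosine (m6A) sites, by the gene name that the authors gave to each site, with the older name Ald for Ald1. They carried 96 of the 29142 listed sites, and each of the 10 genes had at least 1. The sites came from miCLIP of S2R+ cells, a Drosophila melanogaster line with haemocyte character that was grown in culture without a specific treatment. An m6A antibody bound to fragmented poly(A) RNA was crosslinked to it, and sites were read from the marks that the crosslink left in the cDNA. The 6 samples were 4 m6A immunoprecipitations (IPs), 1 IP control without crosslinking and 1 input control of fragmented mRNA. The labels do not say whether the 4 IPs came from separate cultures, and both controls were not analysed here.

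Glycolysis splits glucose into pyruvate and yields ATP and NADH in the cytosol of nearly every cell. The upper steps (Pgi, Pfk, Ald1, Tpi) rearrange and cleave the sugar, and the lower steps (Gapdh1, Gapdh2, Pgk, Pglym78, Eno, PyK) oxidise the trioses and make ATP. The mRNAs of these enzymes are abundant in most growing cells. m6A is laid on mRNA by the Mettl3-Mettl14 methyltransferase complex and is bound by YTH-domain proteins, and in Drosophila it has been studied mostly for splicing and neuronal function.

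Sites were listed in 2 ways. A C-to-T site is a cytosine read as thymine in part of the unique sequence tags, and the cytosine lies directly after the methylated adenine when the usual chemistry holds. A truncation site is a position at which cDNAs stopped more often than expected, given with a peak height and the height of a null model, both as the authors' values. A C-to-T site was called paired when cDNAs truncated at an adenine exactly 1 nt upstream of it, its mate. All values were combined by the authors over the 2 to 4 IPs that shared a site, so they carry no spread between replicates, and no test between samples was possible. Wilson intervals (95%) of shares below cover counting error only. Those of conversion treat the mean tags per IP as the counts of 1 sample, so they do not give the error over all tags. The conversion itself is the mean of the authors' percents, which can differ from the ratio of the mean tag numbers. Positions are dm6 coordinates, 1-based, with transcripts of Ensembl release 115.

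Over the whole transcriptome 6225 C-to-T and 22917 truncation sites were listed, and depth was known only as the tags over listed C-to-T sites, with a median of 274 (20 to 2990.5). The cell type could be checked only by which marker genes had sites. Of 11 haemocyte markers 6 had sites (ush 22, crq 14, Pxn 11, srp 6, Ppn 6 and vkg 1) and Hml, NimC1, eater, He and Col4a1 had none. Sites were listed for 0 of 3 neuronal, 0 of 3 germline and 0 of 3 fat body markers and for 1 of 3 muscle markers (Mef2, 18 sites). Since 27.6% of all 13968 nuclear protein-coding genes had a site, lists of 3 say little about cell type. The lists give no expression level, so how far mRNA abundance moved with any count below was not tested.

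The glycolytic genes had many truncations and few C-to-T sites. Because the genes were taken from names in the site lists, that each had a site followed from the choice, and nothing is read from it. Truncations were listed in 10 of 10 genes, against 27.6% of all nuclear protein-coding genes and 99.9% of the 3857 with any site. C-to-T sites were listed in 5 of 10 genes (Pgi, Pfk, Gapdh1, Pglym78 and Eno), against 9.31% of all genes and 33.7% of those with any site. A pair was found in 3 of 10 (Pgi, Pfk and Gapdh1), against 6.69% of all genes and 24.2% of those with any site. In all there were 89 truncations and 7 C-to-T sites, so that C-to-T sites made up 7.29% of the glycolytic sites (interval 3.58% to 14.3%), against 21.4% of all listed sites (20.9% to 21.8%).

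Truncations were spread unevenly along the pathway. In pathway order Pgi had 3, Pfk 12, Ald1 4, Tpi 6, Gapdh1 8, Gapdh2 2, Pgk 9, Pglym78 5, Eno 20 and PyK 20. Eno and PyK, the last 2 steps, thus held 40 of the 89 truncations (44.9%). The median was 7 truncations in the 10 genes and 3 in the 3852 nuclear protein-coding genes with at least 1. Per kb of exon, the 10 genes ranged from 1.05 in Ald1 to 8.92 in PyK with a median of 4.06, against a median of 1.16 for those 3852 genes, and 9 of 10 lay above that median. C-to-T sites numbered 2 in Pgi, 2 in Eno and 1 each in Pfk, Gapdh1 and Pglym78, and 0 were listed in Ald1, Tpi, Gapdh2, Pgk and PyK.

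**Figure D1:**
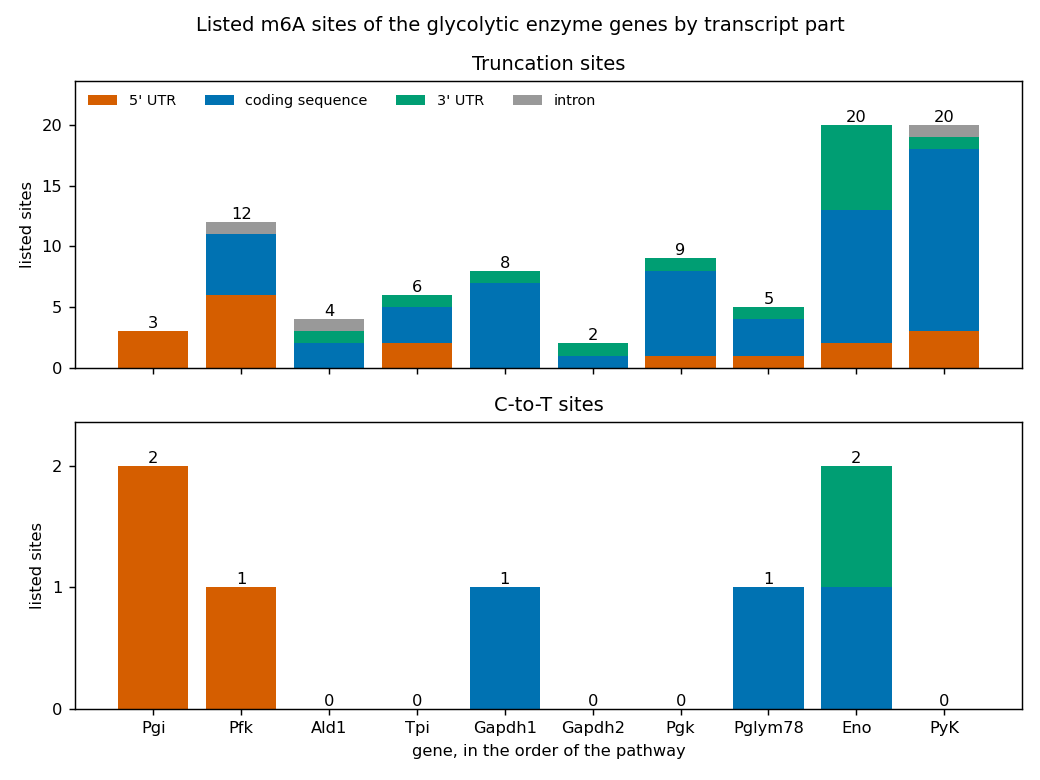
Bars give the number of listed sites per gene (y axis), split by the transcript part that the authors named, for truncations (top) and C-to-T sites (bottom), with the genes in pathway order on the x axis. Eno and PyK have 20 truncations each, mostly in coding sequence, while the 3 truncations and both C-to-T sites of Pgi lie in the 5' UTR.

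Pgi encodes glucose-6-phosphate isomerase, which turns glucose 6-phosphate into fructose 6-phosphate (chromosome 2R, 8910900 to 8914069, minus strand). All of its 5 sites lay in the 5' UTR, in the first exon that its 3 transcripts share. The C-to-T site at 8913746 had 130.5 tags, of which 7.25 were converted, a conversion of 5.58% (interval 2.75% to 10.9%) in 2 IPs. Its mate was a truncation at adenine at 8913747 with a height of 24.7 and a null of 0.78. The C-to-T site at 8913848 had 89.8 tags, of which 5.83 were converted, or 6.52% (2.98% to 13.6%) in 3 IPs. It too had its mate 1 nt upstream, an adenine at 8913849 with a height of 20.1. Both C-to-T sites of Pgi were therefore paired, at 180 and 282 nt before the start codon, and their conversion intervals overlapped. The third truncation, at thymine 8913714, was lower at 10.0. No Pgi truncation was listed in 4 IPs, but each was given by 3 of 3 aligners.

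Pfk encodes phosphofructokinase, which commits fructose 6-phosphate to glycolysis and is the main point of control of the pathway (chromosome 2R, 10109740 to 10117457, plus strand). Apart from 1 in an intron, its 12 truncations fell into a 5' UTR group and a coding group that differed in base and in null height. Of these, 6 lay in the 5' UTR, all at adenine and all in the first exon of Pfk-RB and Pfk-RC, which the other 3 of its 5 transcripts lack. Their heights in 5' to 3' order were 13.6, 39.0, 53.8, 19.0, 44.9 and 34.6, with nulls from 1.62 to 2.65. The last stood 8 nt before the start codon. The peak of 39.0, at 10111195, was given by STAR alone in 2 IPs, and that of 19.0, at 10111283, by Novoalign alone in 4 IPs. The tallest, at 10111234, was the mate of the single C-to-T site at 10111235. That C-to-T site had means of 264 tags and 7.625 converted tags, with a mean conversion of 3.08% (1.45% to 5.68%), in 4 IPs. This was the best-covered C-to-T site of the 10 genes and the one with the lowest conversion.

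Downstream, Pfk had 5 coding truncations shared by all 5 transcripts, 4 at guanine and 1 at thymine, with 0 at adenine. Their heights ranged from 5.5 to 18.5 with nulls from 0.165 to 0.44, and their ratios of height to null reached 42.3, the highest among the glycolytic truncations. The null of every 5' UTR truncation was above that of every coding one, while the heights of both groups overlapped. The 12th truncation, at adenine 10115313, lay in an intron 2 nt before the next exon and was given by Novoalign alone with a height of 10.0. In all, 5 of the 12 Pfk truncations rested on 1 aligner.

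Ald1 encodes fructose-bisphosphate aldolase, which cleaves the sugar into 2 trioses (chromosome 3R, 26254069 to 26261591, minus strand). Its 4 truncations were among the lowest of the set. The adenine at 26257966 had a height of 9.0 and the cytosine at 26257904 a height of 10.2, both in the coding part of an exon that all 10 transcripts share. The thymine at 26254968 had a height of 11 and lay in a 3' UTR found in 2 of 10 transcripts (Ald1-RB and Ald1-RM). The remaining one, an adenine at 26258908 with a height of 6.0, was intronic and 79 nt from the nearest exon.

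Tpi encodes triosephosphate isomerase, which interconverts these trioses (chromosome 3R, 30132981 to 30134599, minus strand). Of its 6 truncations 1 was at adenine, 3 at cytosine, 1 at guanine and 1 at thymine. The tallest, at thymine 30134273, had a height of 28.8 in 4 IPs, lay 36 nt from the nearest transcript start and was given by Novoalign alone. The next was the adenine at 30133313 in coding sequence, at 22.4, and the third the coding cytosine at 30133672, at 15.1. The site next to that adenine, cytosine 30133314, was given by STAR alone, while Novoalign and BWA gave 30133313, so the aligners placed neighbouring stops 1 nt apart.

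Gapdh1 and Gapdh2 encode glyceraldehyde-3-phosphate dehydrogenase, the oxidising step that makes NADH. They are similar copies, and the treatment of reads that match both was not given in the sources used here, so the split between them is uncertain. Gapdh1 (chromosome 2R, 7791901 to 7793380, minus strand) had 8 truncations and Gapdh2 (chromosome X, 15868145 to 15869661, plus strand) had 2. The heights of Gapdh1 ran from 15 to 26.7 with nulls from 1.75 to 2.20. Those of Gapdh2 were 7.75 at thymine 15869060 in the coding sequence and 7.0 at adenine 15869351 in the 3' UTR, with nulls of 0.285 and 0.32. Every height and null of Gapdh1 thus lay above both of Gapdh2.

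Within Gapdh1, 7 of 8 truncations were coding, and 4 of these 7 were at adenine. The tallest were adenine 7793087 in codon 12, at 26.7, adenine 7792622 in codon 167, at 26.0, and guanine 7792806 in codon 105, at 25.3. The single C-to-T site, at 7792125, was the last base of codon 332 of 333 with the stop counted, so it lay directly before the stop codon. It had means of 168.5 tags and 5.0 converted tags, with a mean conversion of 3.51% (1.27% to 6.76%), in 2 IPs and with Novoalign alone. Its mate, adenine 7792126, had a height of 20.1 in 4 IPs and was given by 3 of 3 aligners. This was the 1 pair of the glycolytic genes outside a 5' UTR.

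Pgk encodes phosphoglycerate kinase, the first step that makes ATP (chromosome 2L, 2746880 to 2753068, minus strand). Its 9 truncations were coding in 7 cases, with 1 more in each UTR, and 5 of 9 were at adenine. The tallest was the coding adenine 2747663 in codon 219, with a height of 36.4 over a null of 1.16 in 4 IPs, and it was given by 3 of 3 aligners. It stood well above the next, the 5' UTR adenine 2748492 at 20.3 and the coding cytosine 2747343 at 19.0. The 3' UTR adenine 2746911, at 11, lies where Cwc25 is annotated on the other strand, the only glycolytic site with such an overlap.

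Pglym78 encodes phosphoglycerate mutase, which moves the phosphate group before enolase acts (chromosome 3R, 29148248 to 29149901, plus strand). Its 5 truncations were 10.0 to 20 high, the top 3 being the thymine 29149771 in the 3' UTR at 20, the coding adenine 29148501 at 12 and the coding adenine 29149389 at 10.5. Its C-to-T site at 29149631, in codon 222, had the highest mean conversion of the 7, at 17.7% (7.40% to 34.4%). It rested on means of 28.7 tags and 4.875 converted tags in 4 IPs. Conversion was lower at 99.2% of the listed C-to-T sites, and the tag number was lower at 0.418% of them. It was thus a high share on a thin base, and no truncation lay within 3 nt of it.

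Eno encodes enolase, which makes phosphoenolpyruvate (chromosome 2L, 1724768 to 1729636, minus strand). Its 20 truncations were coding in 11 cases, 3' UTR in 7 and 5' UTR in 2, and 3 of 20 were at adenine. The tallest of all glycolytic truncations was the thymine at 1725125 in the 3' UTR, 216 nt after the stop codon, with a height of 74.2 over a null of 2.02 in 3 IPs. It was higher than 96.6% of the truncation list. The next were a 3' UTR thymine at 1725262 (36.7) and a coding adenine at 1726216 (25.0). In the 3' UTR of Eno 4 truncations were at thymine, 2 at guanine, 1 at cytosine and 0 at adenine. Its coding truncations had even heights, from 15.4 to 25.0, with 5 at thymine, 3 at adenine, 3 at cytosine and 0 at guanine. Both 5' UTR truncations, at 1727676 and 1727712, are coding in Eno-RE.

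Neither C-to-T site of Eno was paired. The one at 1726246, in codon 200 of Eno-RE, had 141 tags, of which 5.5 were converted, or 3.90% (1.74% to 8.52%), in 2 IPs, and the nearest truncation was at cytosine 1726244, 2 nt downstream. The one at 1724927 had means of 36.5 tags and 4.0 converted tags, with a mean conversion of 11.6% (4.35% to 25.0%), in 2 IPs and with BWA alone. It lay 414 nt after the stop codon, in a 3' UTR end that only 1 of 6 transcripts (Eno-RE) reaches.

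PyK encodes pyruvate kinase, which makes ATP and pyruvate in the last step (chromosome 3R, 22367536 to 22372746, plus strand). It had 20 truncations and 0 C-to-T sites. Among the 168 genes with 20 or more truncations, the median was 6 C-to-T sites, 10 (5.95%) had none, PyK among them, and 37 (22.0%) had 2 or fewer, among them Eno and PyK. Of its truncations 15 lay in coding sequence, with heights in a narrow band from 8.5 to 20.3 and ratios to the null from 7.32 to 12.4. Those 15 were at thymine in 6, adenine in 5, guanine in 2 and cytosine in 2 cases.

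The 3 tallest PyK truncations stood in the UTRs. The highest was adenine 22367604 in the 5' UTR, at 31.6, then thymine 22372500 in the 3' UTR, 19 nt after the stop codon, at 28.8, and then cytosine 22367540, 4 nt from the start of PyK-RB, at 24.0. The 5' UTR sites lay in the first exon of PyK-RB, 1 of 2 transcripts. An intronic cytosine at 22372223 had a height of 16.5 in 4 IPs, was given by Novoalign alone and lay 3 nt before the next exon.

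**Figure D2:**
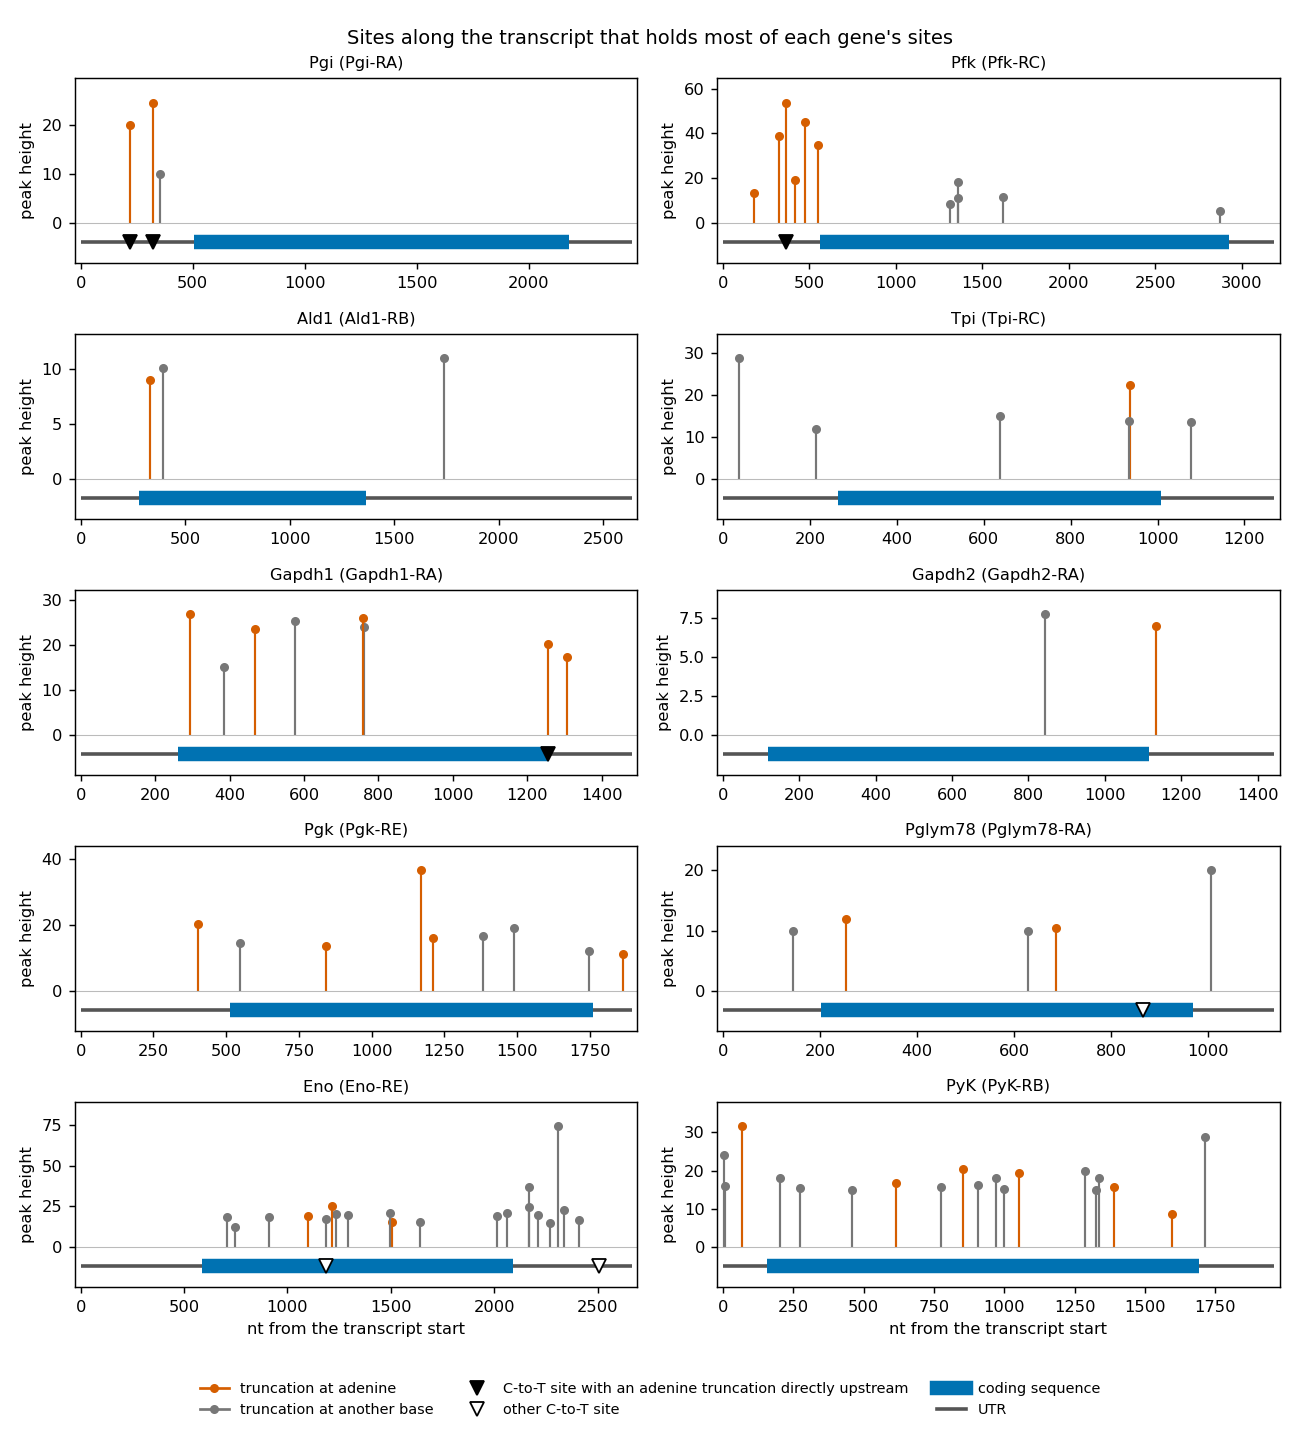
Each panel shows 1 gene on the transcript that holds most of its sites (x axis, nt from the transcript start), with a stem at each truncation whose length is the authors' peak height (y axis), and triangles for C-to-T sites on the transcript line. The sites of Pgi and the tall adenine stems of Pfk (up to 53.8) lie before the coding sequence, those of PyK run along it at similar heights, and the tallest stem of Eno (74.2) lies after it; the 2 Eno sites named 5' UTR fall in coding sequence on Eno-RE.

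Over the 10 genes, coding sequence held most truncations. The share was 60.7% (54 of 89, interval 50.3% to 70.2%), against 38.8% of the whole list. The 5' UTR held 20.2% (18 of 89, 13.2% to 29.7%), against 33.9%, the 3' UTR 15.7% against 13.8%, and introns 3.37% against 8.05%. A low 5' UTR share was usual among genes with many truncations. Its median per gene was 19.6% in the 168 genes with 20 or more and 26.5% in the 879 with 8 or more. The balance between parts was not the same in all glycolytic genes. In Pgi and Pfk together, a split chosen after the values were seen, 9 of 15 truncations (60.0%) lay in the 5' UTR. In the other 8 genes 9 of 74 (12.2%) did. The 7 C-to-T sites divided into 3 of 5' UTRs, 3 of coding sequence and 1 of a 3' UTR, while in the whole C-to-T list 56.5% were of 5' UTRs and 25.2% of coding sequence. These differences from the whole lists were not tested, since sites of 1 gene share their transcript.

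Adenine was the base at 38.2% of the glycolytic truncations (34 of 89, 28.8% to 48.6%), against 51.9% in the whole list. Eno and PyK weighed on this pooled share, with 9 of their 40 truncations at adenine (22.5%, 12.3% to 37.5%). By gene, adenine was the most frequent base, alone or tied, in 7 of 10. Guanine was at 15.7% and cytosine at 16.9%, against 8.14% and 7.49%, while thymine, at 29.2%, was near its share of 32.5%. In coding sequence the adenine share was 35.2% of 54, close to 37.3% in the list, in 5' UTRs 55.6% of 18 against 72.3%, and in 3' UTRs 21.4% of 14 against 43.0%. Eno alone held 7 of those 14 3' UTR truncations, with 0 at adenine, so the low 3' UTR share was not spread over the group. The 5' UTR value also joined unlike genes. In Pgi and Pfk 8 of 9 5' UTR truncations were at adenine (88.9%, 56.5% to 98.0%), while in the other 8 genes 2 of 9 were (22.2%, 6.32% to 54.7%). This split was chosen after the values were seen, and 6 of the 8 adenines lay in the same exon of Pfk. Sites of 1 transcript are not independent counts, so the difference was not tested.

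The non-adenine stops of the 5' UTR lay mostly near transcript starts. Of the 7 glycolytic 5' UTR truncations within 50 nt of the nearest annotated start, 1 was at adenine (14.3%), against 43.1% of 785 in the whole list. Of the 11 farther away 9 were at adenine (81.8%), against 75.7% of 6886. The window of 50 nt was chosen after these values were seen. Among the 7 near sites, Tpi 30134273, Pglym78 29148391, Eno 1727676 and PyK 22367542 were each given by 1 aligner. PyK 22367540 and 22367542 lie 2 nt apart and shared no aligner. Eno 1727676 and 1727712 are near the start of another transcript only, and lie 745 and 709 nt from that of Eno-RE, where they are coding.

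**Figure D3:**
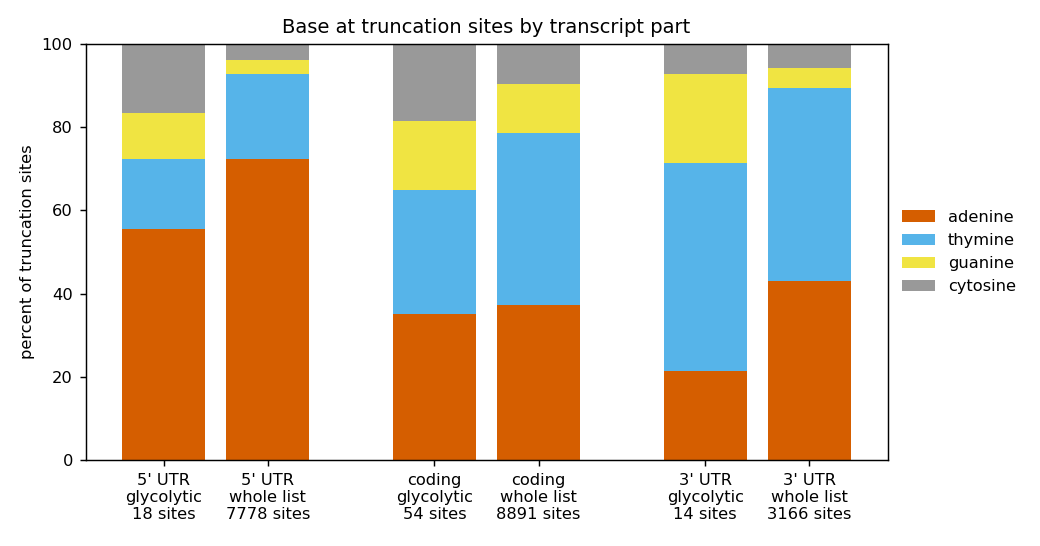
Stacked bars give the percent of truncation sites (y axis) at adenine, thymine, guanine and cytosine in 5' UTR, coding sequence and 3' UTR, with the glycolytic genes left of the whole list in each part and the number of sites under each bar. Adenine takes 55.6%, 35.2% and 21.4% in the glycolytic genes, and guanine and cytosine together take more room than in the list in each of the 3 parts.

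Glycolytic truncations had peaks a little taller than those of the list, over higher nulls. The median height was 16.9 (5.5 to 74.2), against 14.5 in the list, and 63 of 89 (70.8%) stood above that list median. The median null was 1.60, against 0.92. The ratio of height to null was accordingly 12.7 at the median (6.83 to 42.3), against 16.8, and 27 of 89 (30.3%) exceeded the list median of that ratio. Of the 10 tallest glycolytic truncations 6 were at adenine and 4 at thymine, and 6 lay in the 5' UTR. Most of both sets of 6 came from 1 exon of Pfk, with its 5' UTR adenines at 53.8, 44.9, 39.0 and 34.6. The column legend does not say how the authors merged heights from several IPs, so heights of sites with unlike IP numbers may not be on 1 scale.

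Genes differed in where they lay on these scales. Gapdh1, Eno and PyK, with 33 coding truncations together, had coding heights from 8.5 to 26.7 and ratios from 6.83 to 14.8, so every one of them was under the list's median ratio. Ald1, Gapdh2 and the coding sites of Pfk had nulls of at most 0.54 and heights from 5.5 to 18.5, with ratios from 18.9 upwards. Over all of their truncations, Tpi, Pgk and Pglym78 had median ratios of 14.9, 13.7 and 14.4. Single ratios ran from 11.8 to 25.8 in Tpi, 8.43 to 31.5 in Pgk and 9.39 to 18.7 in Pglym78. Each of these ranges thus overlapped the first group, and those of Tpi and Pgk also reached into the second.

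**Figure D4:**
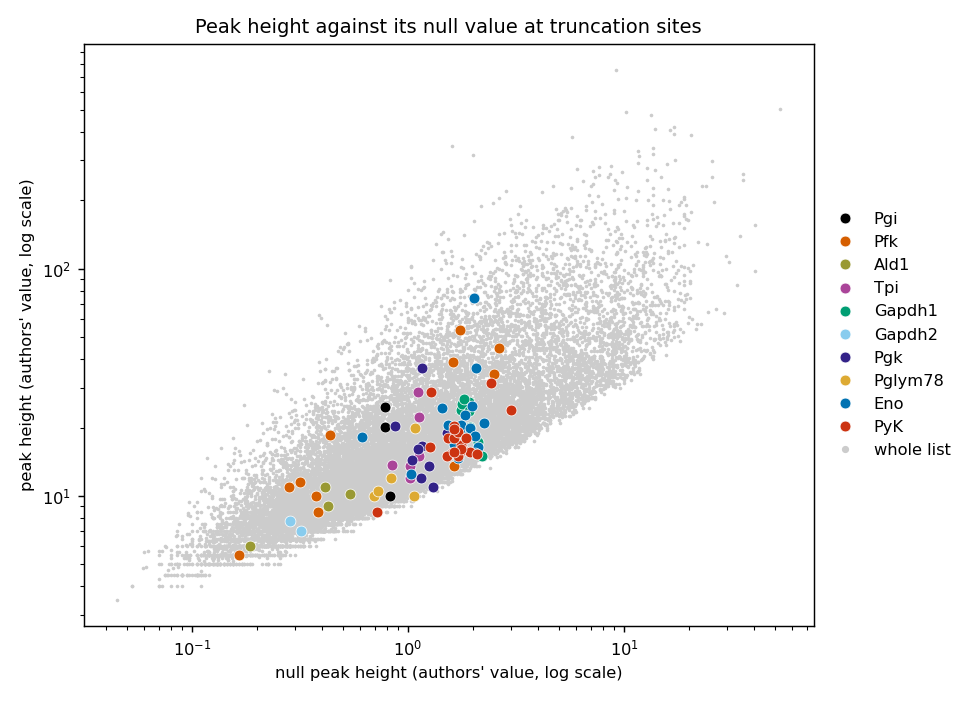
Each point is a truncation site, with its null peak height on the x axis and its peak height on the y axis (both log scales), coloured by gene for the 10 glycolytic genes and grey for the whole list. Sites of Gapdh1, Eno and PyK mostly gather at nulls above 1, whereas Ald1, Gapdh2 and the coding sites of Pfk sit at nulls of at most 0.54.

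Support over IPs and aligners is summarised here, since it was named above for only some sites. A site named without its support was not necessarily given by all 3 aligners. Truncations listed in 4 IPs made up 36.0% of the glycolytic sites (32 of 89, 26.8% to 46.3%), against 27.4% of the list. They were found in 8 genes, with 8 each in Eno and PyK, 5 in Pfk, 4 in Tpi, 3 in Gapdh1, 2 in Pgk and 1 each in Gapdh2 and Pglym78, while Pgi and Ald1 had 0. All 3 aligners gave 56 of 89 (62.9%, against 56.2%), and 21 rested on 1 aligner, namely 13 on Novoalign, 7 on STAR and 1 on BWA. Of the 7 C-to-T sites 0 were given by STAR, against 46.3% of the whole C-to-T list. The single-aligner sites include the tallest Tpi truncation, the Pfk 5' UTR truncation with a height of 39.0, the Gapdh1 C-to-T site and the 3' UTR C-to-T site of Eno.

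The C-to-T sites of the glycolytic genes were thinly covered. Their median was 130.5 tags (28.7 to 264), against 274 in the list, with a median of 5.5 converted tags (4.0 to 7.625), against 8.17. The median conversion was 5.58% (3.08% to 17.7%), against 3.43%. Among the 7 sites, each site with more tags had a lower conversion. No C-to-T site of the whole list had fewer than 3.5 converted tags, so a thinly covered site could be listed only at a high conversion. How far this floor set the difference in median conversion was not tested. The highest and lowest conversions named above are of sites at unlike coverage and are not comparable levels. Pairs made up 4 of the 7 sites (57.1%, 25.0% to 84.2%), against 35.1% of the list, and the interval holds the list's share. Seen from the truncations, a C-to-T site followed 4 of the 34 glycolytic adenines (11.8%, 4.67% to 26.6%), against 18.3% of 11897.

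**Figure D5:**
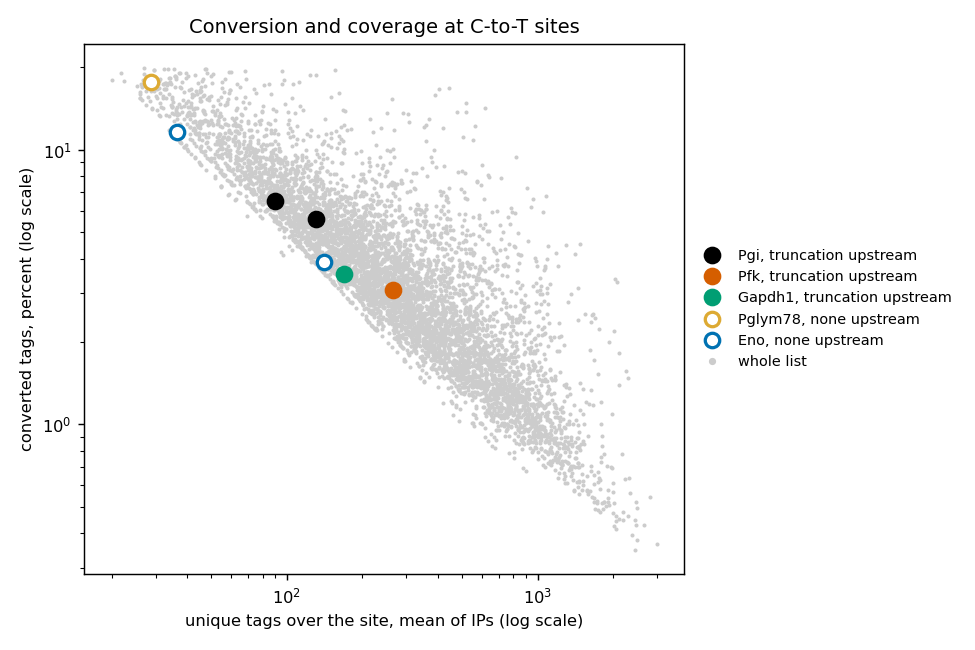
Each point is a C-to-T site, with the unique tags over it on the x axis and the percent of tags converted on the y axis (both log scales). Filled circles are the paired sites of Pgi, Pfk and Gapdh1, open circles the unpaired sites of Pglym78 and Eno, and grey points the whole list; the 7 sites run from 28.7 tags at 17.7% to 264 tags at 3.08%.

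The neighbouring steps of carbon metabolism were read from lists of genes. For each list the share of all nuclear protein-coding genes with a site, 27.6%, serves as the background. Of 15 genes that feed or leave glycolysis 8 had sites, 58 in all, 8 of them C-to-T and 3 of those paired. Hex-A, the hexokinase gene of the first step, had 16 sites, of which 7 were C-to-T sites, all in the 5' UTR and 2 of them paired. Gpo1, of the glycerophosphate shuttle, had 21 truncations and 0 C-to-T sites. PCB, which encodes pyruvate carboxylase, had 7 truncations, and Pgm2a, which encodes a phosphoglucomutase, had 5. Gpo1 (21) and PyK (20) both had many truncations with 0 C-to-T sites.

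Of the 8 paralogs of the glycolytic genes (among them Ald2 and Pglym87) 0 had a listed site. In the pentose phosphate pathway 4 of 7 genes had sites, 25 truncations and 0 C-to-T sites, led by CG8036, a transketolase gene, with 12 and by Pgd, which encodes phosphogluconate dehydrogenase, with 8. Of 16 genes of pyruvate dehydrogenase and the citric acid cycle 14 had sites, 58 in all, with 3 C-to-T sites of which 2 were paired. The largest counts there were 9 in Ogdh, 7 in kdn, which encodes citrate synthase, 7 in Scsalpha1, 6 in Idh, 5 in Idh3a and 5 in SdhA. C-to-T sites were few in each of these lists other than in Hex-A.

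The genes whose sites were distributed most like those of the pooled glycolytic genes were crc, RhoGAP18B, Arp3, Uba1 and CAH7. Likeness was the sum of absolute differences, in percentage points, between shares of exonic sites in 6 classes (C-to-T or truncation, by 5' UTR, coding sequence and 3' UTR), over 304 genes with at least 20 sites. It was 12.7 for crc, 14.1 for RhoGAP18B, 14.4 for Arp3, 16.5 for Uba1 and 18.4 for CAH7, against a median of 89.5 over the 304 genes.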

How the data were processed

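The authors deposited 1 list of C-to-T sites and 1 of truncation sites. The deposited column legend names the CTK toolkit as the site caller, run on reads aligned by Novoalign, by STAR and by BWA, and sites were kept when shared by 2, 3 or 4 IPs. The submitters' processing notes give the build dm6, and they also name cutadapt 1.8, Bowtie 1.1.2 and STAR 2.4.2a, with no role stated. For C-to-T sites the deposited legend gives unique tags, converted tags and their percent as means over the IPs sharing the site. For truncations it gives the peak height, its null and the base. The way heights were merged over IPs, and any filter against the controls, were not given in the sources used here.

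Here each value was averaged over the aligners that gave the site, and its number of IPs was the highest over aligners. Transcript parts are the authors' labels. In the annotation (Ensembl release 115), a site took the first of 5' UTR, coding sequence and 3' UTR that any transcript gave. By that rule the part was the same at 96 of 96 glycolytic sites, and 93 of 96 lay in exons. The agreement depends on the rule, since both 5' UTR sites of Eno are coding in Eno-RE. Of 4094 gene names 3948 matched the annotation, as did 69 of 69 list genes. Wilson 95% intervals for conversion used the mean tag numbers. Site counts were set beside those of all genes or the whole lists, with no test, since members and lists were chosen with earlier results of these data known. All 10 members were named, with every pair, up to 3 C-to-T sites and the 3 tallest truncations of each; of other lists, genes with 5 or more sites. Other sites and counts named were chosen after their values were seen. Sequences around sites were not used here. Python 3.11.15 and matplotlib 3.10.9 were used, and the functions were tested on simulated data.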

Additional observations from a re-analysis of the deposited data

How the results depend on the processing

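The values were recomputed under the listed alternatives. With sites in 4 IPs the C-to-T count was 2 in place of 7, its 3' UTR share 0.0% in place of 14.3%, the truncation count 32 in place of 89 and, with both mates in 4 IPs, the pairs 1 in place of 4. With sites given by 3 aligners the counts were 0 C-to-T sites and 56 truncations, and 0 C-to-T sites had more converted tags than the list median. These alternatives keep fewer sites by construction. Of the other 24 values the counts stayed within 1.5 times, and the median conversion moved most. Annotated exons gave 7 and 86 sites, truncations above the list's median height numbered 63, and truncations within 3 nt at any base gave 5 pairs. Merging sites within 3 nt (7 and 84) and leaving out sites of 1 aligner (5 and 68) were chosen after seeing the data. The adenine share was 46.9% in 4 IPs and 41.1% with 3 aligners. The median conversion was 4.8% with Novoalign, 6.11% with BWA and 10.4% over the 2 sites in 4 IPs, and STAR gave no value. Leaving out a replicate was not possible because the listed values are combined over IPs. No paired analysis was possible because no test between samples was made. The C-to-T sites rest on 4.0 to 7.625 converted tags each, and coverage elsewhere is unknown.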

Other observations

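Within codons, 33 of the 54 coding truncations of the glycolytic genes lay at the first base (61.1%, interval 47.8% to 73.0%), 3 at the second (5.56%, 1.91% to 15.1%) and 18 at the third (33.3%, 22.2% to 46.6%). In the whole list the shares were 51.7%, 19.7% and 28.7% of 8557 coding truncations that could be placed in a codon. Along the coding sequence, cut into 3 segments of equal length, 14 lay in the first (25.9%), 24 in the middle (44.4%) and 16 in the last (29.6%), against 36.1%, 31.6% and 32.2% in the whole list. At the second base lay 0 of 11 in Eno, 0 of 15 in PyK and 1 of 7 in Gapdh1. The base composition of each codon position was not used here, and these differences were not tested.

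Neighbouring truncations within 3 nt of each other numbered 5 in the glycolytic genes. In Pfk (10114961 and 10114962), PyK (22367540 and 22367542) and Tpi (30133313 and 30133314) the neighbours shared no aligner, with the second site of each given by STAR alone. That was 3 of 5, against 57.5% of 804 such neighbours in the whole list. In Gapdh1 (7792619 and 7792622) they shared 1 aligner and in Eno (1725262 and 1725263) all 3. The 14 truncations in 3' UTRs lay 17 to 374 nt after the stop codon, with a median of 90.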
